A study of Homo sapiens with 24 samples.

Results

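The response to retinoic acid (RA) was measured in SH-SY5Y cells labelled OE, read here as overexpression of the microRNA miR-125b. The comparison took every array of the title group RA+ OE D2, treated with RA and collected on day 2, and every array of the title group RA- OE D2, collected on day 2 without RA. These were 3 arrays against 3, or 6 of the 24 Illumina arrays of the series. SH-SY5Y is an established human neuroblastoma line, so both groups share the tumour background, the day and the miR-125b manipulation, and differ by RA. The scrambled control cells (RA+ SCR D2 and RA- SCR D2, 3 arrays each) are used only to show where the response of OE cells differs. The labels leave OE unexplained and use DP for it in the source names. Levels of miR-125b itself were not analysed here. The growth protocol in the labels names other reagents than the titles do, so the sources used here give neither the RA dose nor how miR-125b was delivered, nor whether replicates were separate cultures. The spread between arrays, on which the p-values rest, may be technical. With 3 arrays a group, their number sets the precision.

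RA is a derivative of vitamin A that enters the nucleus and binds retinoic acid receptors, which pair with retinoid X receptors on DNA and switch target genes on when the ligand arrives. Among its well-known targets in many cells is its own degrading enzyme, so that strong induction from a low base is a familiar feature of the pathway. In neuroblastoma cells RA slows division and promotes neurite outgrowth. MiR-125b is a conserved microRNA, abundant in brain, whose seed pairs with target messenger RNAs and lowers their output. Its mature sequence defines the manipulation shared by all 6 arrays, and is shown with the seed (bases 2 to 8) in capitals, from RefSeq.

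hsa-miR-125b-5p: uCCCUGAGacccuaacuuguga

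The same mature sequence comes from 2 loci of GRCh38.p14. MIR125B1 gives it at chr11:122099809-122099830 on the minus strand, within the bounds of the long non-coding RNA gene MIR100HG. MIR125B2 gives it at chr21:16590253-16590274 on the plus strand, within the bounds of the long non-coding RNA gene MIR99AHG. The tables used here do not pair the Illumina probe IDs with genes, so neither RA targets nor targets of this seed can be picked out, the labelled cell type was not checked against its markers, and the response is described by probe.

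Replicate 2 of the RA-treated OE group stood apart from every other array. Its normalized log2 levels deviated from the mean of the other two arrays of its group with an SD of 0.338 across the tested probes. For replicates 1 and 3 of that group the SD was 0.242 and 0.206, which includes their distance to replicate 2. In the untreated OE group it was 0.135, 0.131 and 0.129. Across the 21 arrays of the other 7 groups it ran from 0.111 to 0.216. Replicate 2 correlated with replicates 1 and 3 at r of 0.978 and 0.982 across probes, against 0.994 between those arrays and 0.996 for each pair of untreated OE arrays. It was the array farthest from the other members of its group at 53.0% of the probes, against 25.7% for replicate 1 and 21.2% for replicate 3. Its mean scanner intensity, 922.7, lay within the 707.9 to 1019.0 of the 6 arrays, and 15.5% of its values were below 0, within their 14.8% to 17.3%. Counts of calls and fitted changes are therefore given with and without it.

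RA changed about as many probes upward as downward in OE cells, and most changes were small. Of 10691 probes tested, 2442 were called (22.8%; limma, adjusted p under 0.05), with 1204 higher (11.3%) and 1238 lower (11.6%). The median size among the called probes was 0.41 on the log2 scale, and the median over all tested probes was -0.01. The median standard error (SE) of a change was 0.10 log2, which gives a 95% interval of 0.21 log2 to either side. This SE rests on a spread shared by all 8 groups. With only the 2 groups of the comparison fitted, the median SE was 0.115 log2, and 0.099 without replicate 2. Without replicate 2, 2197 probes were called (20.5%), with 1077 higher (10.1%) and 1120 lower (10.5%). Arrays of the groups did not overlap at 3458 of the tested probes (32.3%), among them 1122 of the probes called higher and 1154 of those called lower. Without replicate 2 they did not overlap at 47.8% of the tested probes, with fewer arrays to separate.

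The large changes were mostly rises. At least 2-fold, 106 probes rose (0.991% of those tested) and 56 fell (0.524%), 1.52% in all, and at all 162 of them the arrays of the groups did not overlap. At least 4-fold, 20 rose and 3 fell. At least 8-fold, 12 rose and none fell. Leaving out replicate 2 gave 103 higher (0.963%) and 53 lower (0.496%) at 2-fold, 1.46% in all, 19 and 4 at 4-fold, and again 12 and none at 8-fold. All 106 and all 56 probes of the 2-fold lists were still called, in the same direction, without replicate 2. Of them, 95 rises and 46 falls were at least 2-fold both with and without it.

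**Figure D1:**
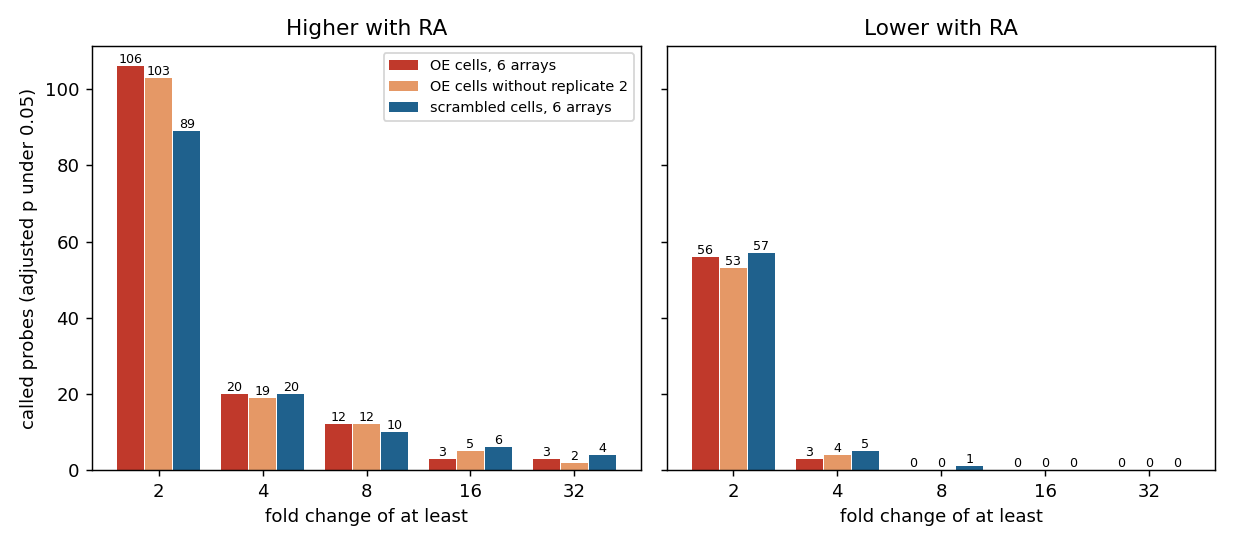
Number of probes called (vertical axis) at or above each fold change (horizontal axis) with RA, higher on the left and lower on the right, in OE cells with all 6 arrays, in OE cells without replicate 2 of the RA-treated group, and in scrambled cells. The tail of rises of at least 8-fold, 12 probes in OE cells with and without replicate 2, has no counterpart among the falls in OE cells. In scrambled cells 10 probes rose and 1 fell at least 8-fold.

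ILMN_28662 and ILMN_27300 had the largest fitted rises. Untreated levels of both were near the background, so their order is not settled: ILMN_27300 had the larger rise with a normexp offset of 16 and without background correction. For ILMN_28662, the scanner intensity was 5117.3, 4603.5 and 4586.5 on the RA-treated OE arrays, replicates 1 to 3, against 17.7, 3.9 and 43.4 on the untreated OE arrays. The RA-treated values were thus bright and the untreated ones lay under the median of their arrays, with no overlap. On the normalized log2 scale the level was 12.32, 12.04 and 12.29 with RA, against 6.60, 6.30 and 6.79 without. The change was 5.66 log2 (SE 0.12, a 50.4-fold rise, limma adjusted p = 5.14e-22), and 5.74 log2 without replicate 2. Because the untreated level is close to the background, the fold depends on its treatment: the change was 6.31 log2 with the smaller offset of 16, 7.69 without background correction and 7.40 in the authors' normalized intensities.

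ILMN_27300 measured 4220.2, 3633.0 and 3333.0 scanner units on the RA-treated OE arrays, against 6.3, 8.9 and -3.5 on the untreated ones. On the log2 scale these were levels of 12.05, 11.72 and 11.85 with RA, against 6.38, 6.40 and 6.21 without. The rise was 5.55 log2 (SE 0.09, 46.8-fold, limma adjusted p = 3.16e-24), 5.63 without replicate 2, 6.34 with the offset of 16 and 7.84 without background correction. Replicate 2 gave the lowest of the 3 RA-treated levels at both probes, but far above every untreated array.

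The deepest falls were shallower and started from a well measured level. ILMN_3487 measured 293.3, 259.1 and 303.0 scanner units on the RA-treated OE arrays, against 1570.7, 1721.1 and 2365.7 on the untreated ones. Its normalized log2 level was 8.54, 8.20 and 8.67 with RA, against 10.95, 10.84 and 10.95 without, so that no array overlapped and replicate 2 was the lowest. The change was -2.44 log2 (SE 0.11, limma adjusted p = 2.28e-15), and -2.31 log2 without replicate 2. It was -2.57 log2 with the offset of 16, -2.74 without background correction and -2.73 in the authors' normalized intensities. ILMN_23892 measured 131.4, 106.6 and 134.7 scanner units on the RA-treated OE arrays, against 725.3, 747.3 and 1180.3 on the untreated ones. On the log2 scale its level was 7.71, 7.37 and 7.80 with RA, against 9.89, 9.70 and 10.01 without. The change was -2.24 log2 (SE 0.12, limma adjusted p = 7.55e-14), and -2.11 log2 without replicate 2. In the same other settings it was -2.47, -2.83 and -2.84 log2. It was deeper than that of ILMN_3487 without background correction and in the authors' intensities, so which probe fell most is not settled.

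**Figure D2:**
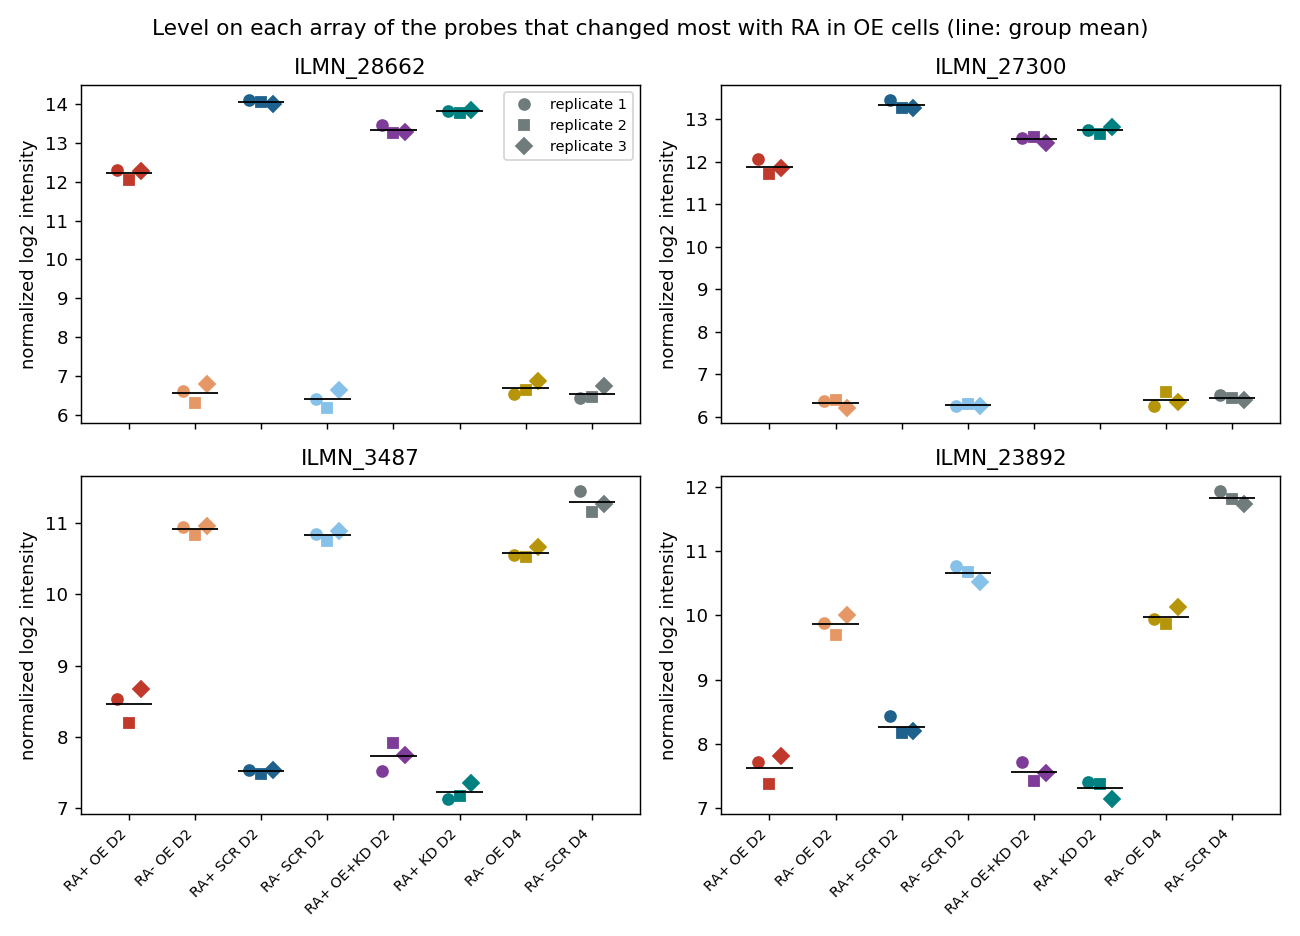
Normalized log2 intensity (vertical axis) on each of the 24 arrays, by group (horizontal axis). The probes are those with the largest fitted rises (ILMN_28662, ILMN_27300) and falls (ILMN_3487, ILMN_23892) with RA in OE cells. Marker shapes give the replicate number and lines the group mean. All 3 RA-treated OE arrays are apart from all 3 untreated OE arrays at each probe, and the RA-treated OE level of the rising probes is under that of the other RA-treated groups.

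The 10 probes with the largest rises ranged from 3.33 to 5.66 log2 and the 10 with the largest falls from -1.56 to -2.44 log2. All 20 were called in the same direction without replicate 2, and no value moved by more than 0.16 log2. All 20 were also called in the same direction in scrambled cells. In OE cells on day 4 without RA, the 10 rising probes stood between -0.04 and 0.21 log2 of their day 2 level, so their level stayed low in the absence of RA on both days. The 10 falling probes ranged more widely there, from -1.29 to 0.82 log2 of their day 2 level. In cells carrying OE and knockdown together (RA+ OE+KD D2), also treated with RA, the 10 rising probes stood 3.05 to 6.78 log2 above untreated OE cells, and the falling ones at -3.18 to -1.35 log2 of them. These side by side values share the untreated OE arrays.

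Some probes went from the dim side of the array to the bright side. Of the tested probes, 68 lay below the array median on all 3 untreated OE arrays and above it on all 3 RA-treated ones. Of these, 62 were called higher (56 without replicate 2) and 25 changed at least 2-fold, and the median change of the 68 was 0.67 log2. The opposite move was made by 53 probes, of which 45 were called lower (44 without replicate 2) and 5 changed at least 2-fold, with a median of -0.53 log2 over the 53. Crossing the median selects for change, and a probe close to the median can cross it by a small move, so these counts are a description. Among the 12 probes that rose at least 8-fold, 8 lay below the array median on all 3 untreated arrays.

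The response was spread over the range of intensities. The tested probes were cut into 4 bins of equal size by their mean level over all arrays. In the dimmest bin 291 were higher and 303 lower (22.2% called), in the next 327 and 312 (23.9%), in the third 342 and 337 (25.4%), and in the brightest 244 and 286 (19.8%). Without replicate 2 the bins, from dimmest to brightest, had 248 higher and 281 lower, 294 and 299, 307 and 298, and 228 and 242. At least 2-fold, rises outnumbered falls in each bin, with 29 against 12 in the dimmest and 20 against 8 in the brightest. The deviation of replicate 2 from the mean of replicates 1 and 3 had an SD of 0.27 log2 in the dimmest bin, 0.34 in the next, 0.38 in the third and 0.35 in the brightest. Replicates 1 and 3 differed from each other with an SD of 0.22, 0.20, 0.19 and 0.18 in the same bins.

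Which changes under 2-fold were called depended in part on replicate 2. Of the 2442 probes called with all arrays, 1758 (72.0%) were also called without it, none in the opposite direction. These made up 80.0% of the calls without it. Another 684 were called only with replicate 2, and 439 only without it. The 322 rises lost without it had a median change of 0.33 log2 with it and 0.24 without it, and at 310 of them replicate 2 lay above the mean of replicates 1 and 3. The 362 falls lost without it had medians of -0.32 and -0.23, and replicate 2 lay above that mean at 15 of them. Since these probes were chosen by losing their call without replicate 2, the side on which it lay is largely set by the choice. Among the lost calls the largest change with all arrays had a size of 0.65 log2 for rises and 0.89 log2 for falls. Among the calls gained without replicate 2 the largest had a size of 0.92 log2 for rises and 0.81 log2 for falls, so some changes not far under 2-fold also turned on this array. Among the 882 rises called both ways, replicate 2 lay above the mean of the other two at 48.6%, and among the 876 falls at 52.7%.

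The array also raised the error when the 2 groups were fitted alone. When only the groups RA+ OE D2 and RA- OE D2 were fitted, 1078 probes were called with all 6 arrays, and 2227 without replicate 2 (limma, adjusted p under 0.05). The median residual SD in these fits was 0.14 log2 with it and 0.10 without it. At least 2-fold the 6 arrays gave 106 higher and 56 lower in that fit, the same counts as when all 24 arrays were fitted, and 103 and 53 without replicate 2. The 2-fold counts thus moved little between these fits, while the total of calls moved much. The model over all 24 arrays shares 1 estimate of the spread per probe and gives this array the same weight as the others. In that model the median SE for RA in OE cells was 0.102 log2 with replicate 2 and 0.104 without it. For RA in scrambled cells it was 0.102 and 0.093.

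**Figure D3:**
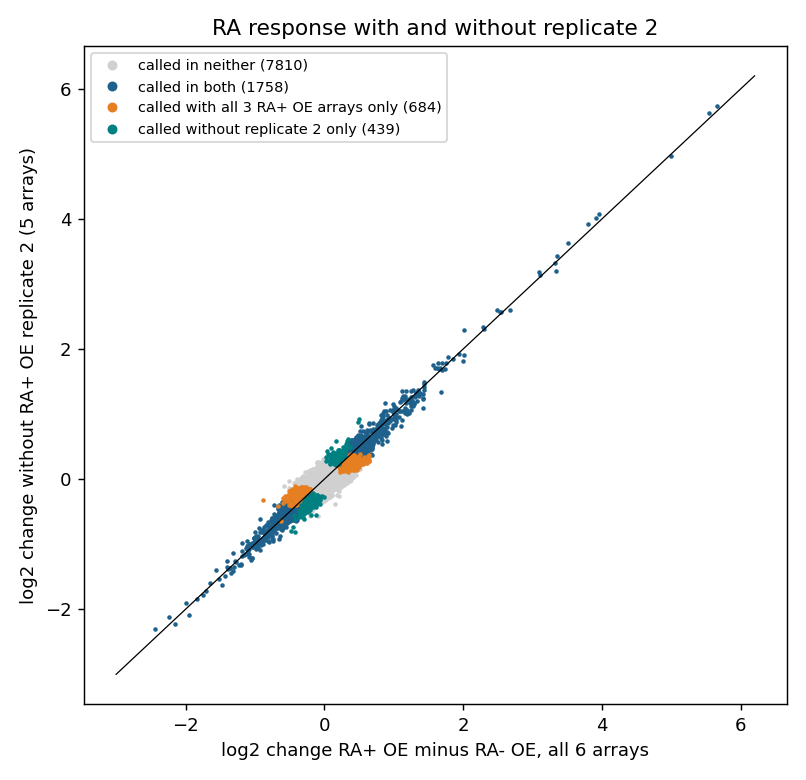
Log2 change with RA in OE cells for each tested probe with all 6 arrays (horizontal axis) and without replicate 2 of the RA-treated group (vertical axis); colours give whether the probe was called, and the line marks equal values. The 1758 probes called both ways include all 162 called changes of at least 2-fold with all arrays, and the 684 and 439 called only one way have changes under 2-fold.

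The same treatment in scrambled control cells, which shares no array with the comparison in OE cells, gave 995 probes higher (9.31% of those tested) and 1078 lower (10.1%), 19.4% in all. Median scaling of the arrays in place of quantile normalization moved this split to 571 higher and 1463 lower. When each comparison was fitted on its own groups alone, 2931 probes were called in scrambled cells and 1078 in OE cells. Which background had more calls thus depended on the fit. The strong responses were common to both backgrounds. Of the 106 probes that rose at least 2-fold in OE cells, 105 were called higher in scrambled cells, 69 of them at least 2-fold. Of the 56 that fell at least 2-fold, 55 were called lower there, 34 of them at least 2-fold. Without replicate 2, all 103 rises and all 53 falls of at least 2-fold were called in the same direction in scrambled cells. Of these, 71 and 33 were at least 2-fold there, with the scrambled calls taken from the fit with all arrays. Read the other way, of the 89 probes raised at least 2-fold in scrambled cells (0.832% of those tested, and 1.37% with the falls) 87 were called higher in OE cells (88 without replicate 2). Their median change was 1.34 log2 in OE cells and 1.42 in the scrambled cells that chose them, against -0.01 in both for all tested probes, and 1.31 in OE cells without replicate 2. Of the 57 lowered at least 2-fold in scrambled cells (0.533%), 55 were called lower in OE cells (56 without replicate 2), with medians of -1.08 in OE cells, with and without replicate 2, and -1.28 in scrambled cells.

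These lists, chosen on scrambled arrays, can be read on each OE array. Relative to the mean of the untreated OE arrays, the median of the 89 raised probes was 1.35, 1.45 and 1.32 log2 on RA-treated replicates 1 to 3, against -0.01, 0.01 and 0.01 on the untreated replicates. The median of the 57 lowered probes was -1.09, -0.99 and -1.25 on the RA-treated arrays, against 0.02, -0.01 and 0.00 on the untreated ones. Replicate 2 had the highest median of both lists, and all 3 RA-treated arrays were far from the untreated ones. In OE cells on day 4 without RA the same medians were 0.06, 0.05 and 0.03 for the raised probes and -0.24, -0.18 and -0.23 for the lowered ones.

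Over all calls, of any size, about as many were shared among rises as among falls. Of the 1204 probes raised in OE cells, 650 (54.0%) were called higher in scrambled cells, and of the 1238 lowered, 669 (54.0%) were called lower. Of those called both with and without replicate 2, the shares were 68.7% of 882 rises and 69.6% of 876 falls. The other calls do not show a response particular to OE cells. Of the 1117 probes called in OE cells and not called in scrambled cells, the difference between the RA effects was called at 14. Without replicate 2 in the OE calls and the difference these were 810 probes and 8. The scrambled calls in these counts were still those of the fit with all arrays. Leaving out replicate 2 lowered the median SE for RA in scrambled cells from 0.102 to 0.093 log2. The 810 may therefore include probes that the fit without it would call in scrambled cells.

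The difference itself, the RA effect in OE cells minus that in scrambled cells, was called at 79 probes (0.739% of those tested; limma, adjusted p under 0.05), 50 positive (0.468%) and 29 negative (0.271%). With median scaling it was called at 44 probes, 77.3% of them positive, against 63.3% with quantile normalization. With replicate 2 included, same-numbered arrays deviated together more in scrambled than in OE cells. With the replicate number as a block the difference was called at 122 probes, 81 positive and 41 negative. An unadjusted p under 0.05 was reached by 874 probes. Without replicate 2 it was called at 58 probes (0.543%), 39 positive (0.365%) and 19 negative (0.178%), and 50 probes were called both ways with the same sign. Of the 79, RA moved 22 in the same direction in both backgrounds with a smaller effect in OE cells, and 18 with a larger one. At 5 the called effects were opposite, 8 rises and 6 falls were called in OE cells alone, and 8 rises and 12 falls in scrambled cells alone. Without replicate 2, 18 were smaller and 17 larger in OE cells, and 5 were opposite. The count was between 34 and 48 when any 1 array of RA- OE D2, RA- SCR D2 or RA+ SCR D2 was left out, 34 without RA- OE D2 replicate 3, and the median SE of a difference was 0.14 log2.

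The largest negative differences were at strong RA responders, ILMN_28662 and ILMN_23980, whose order turned in the authors' normalized intensities. ILMN_28662 rose by 5.66 log2 in OE cells, against 7.66 in scrambled cells, a difference of -2.0 log2 (SE 0.17, limma adjusted p = 9.42e-08), and of -1.91 without replicate 2. Its scanner intensity with RA was 5117.3, 4603.5 and 4586.5 in OE cells, against 13691.4, 15978.3 and 18033.3 in scrambled cells, with no overlap. Without RA it lay between 3.9 and 43.4 in OE cells and between -2.0 and 32.6 in scrambled cells, near the background in both. ILMN_23980 rose to 1135.4, 1052.6 and 1046.9 scanner units in RA-treated OE cells, against 2.3, -6.6 and 14.2 in untreated OE cells. The change was 3.91 log2 in OE cells and 5.78 in scrambled cells. The difference was -1.87 log2 (SE 0.16, limma adjusted p = 9.42e-08), and -1.76 without replicate 2.

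The strongest rises were not smaller in OE cells at every probe. Of the 12 probes that rose at least 8-fold in OE cells, 8 had a larger fitted change in scrambled cells, and the difference was called at 5, being negative at 4. Of the 106 that rose at least 2-fold, 32 had a larger fitted change in scrambled cells, and the difference was called at 17, being negative at 6. Without replicate 2 the counts were 8 of 12 with 5 called and 4 negative, and 33 of 103 with 17 called and 6 negative. Since these lists were chosen by their change in OE cells, the counts are a description.

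At ILMN_17483 RA had opposite effects in the 2 backgrounds, and the positive difference was the largest fitted with the offset of 50. It measured 780.7, 1100.4 and 814.2 scanner units on the RA-treated OE arrays, against 482.6, 617 and 536.4 on the untreated ones, a normalized rise of 0.63 log2 (SE 0.10; adjusted p = 1.86e-05, limma). In scrambled cells it measured 344, 499.6 and 570 with RA, against 680.2, 976.6 and 1058.2 without, a change of -0.64 log2 (adjusted p = 1.32e-05, limma). The difference was 1.27 log2 (SE 0.13, limma adjusted p = 2.70e-06), and 1.22 without replicate 2. The arrays of the groups did not overlap in either background. Its level also differed between groups without RA. In OE cells the untreated mean was 9.28 log2 on day 2 and 10.15 on day 4, and in scrambled cells 9.76 and 9.45.

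ILMN_29635 also had a positive fitted difference, but it was near the background in OE cells before RA was given, so a fall there could not be measured and the size of the difference is set by the background. It was 1.07 log2 (SE 0.18, limma adjusted p = 0.00245), 1.07 without replicate 2, 1.44 with the offset of 16 and 2.33 without background correction, in both of these settings above that of ILMN_17483. In OE cells it measured 18.4, 13.6 and 9.7 scanner units with RA, against 16.5, 34.4 and 26.3 without, and the change of -0.17 log2 was not called (limma adjusted p = 0.375). In scrambled cells it measured 6.7, 4.3 and 26 with RA, against 109.7, 146.3 and 178.0 without, and fell by 1.24 log2.

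**Figure D4:**
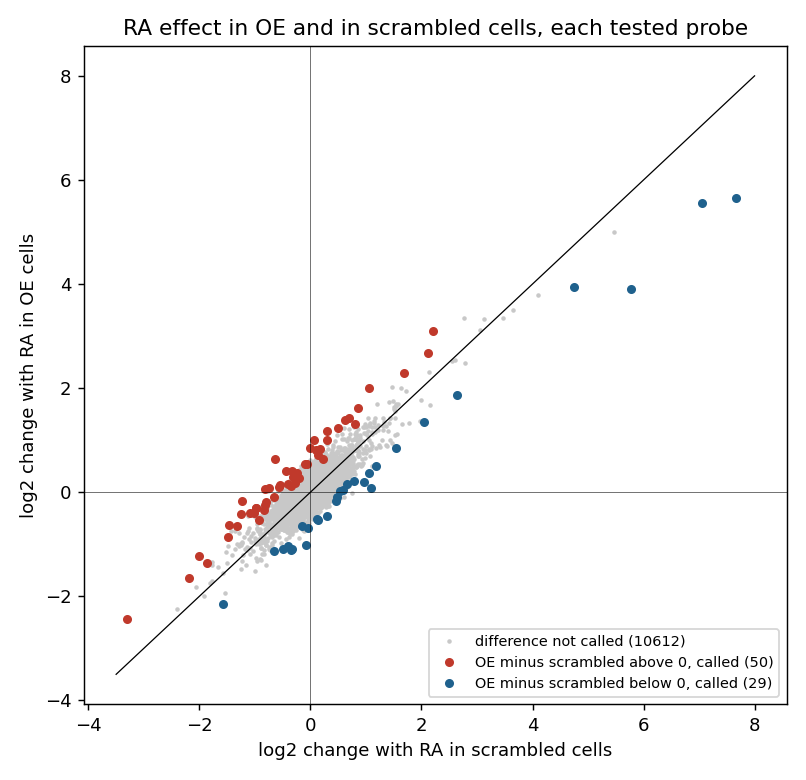
Log2 change with RA in scrambled cells (horizontal axis) and in OE cells (vertical axis) for each tested probe; colours mark the 50 positive and 29 negative differences called, and the line marks equal effects. ILMN_28662 and ILMN_23980 lie below the line, at 5.66 and 3.91 log2 in OE cells, and the difference was called at 17 of the 106 probes that rose at least 2-fold.

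Each OE array was placed on the RA axis of scrambled cells by the slope, through 0, of its deviation from the untreated OE mean on the RA effect in scrambled cells, over the 2073 probes called there. A slope of 0 is the untreated OE level, and the mean of the untreated arrays is 0 by construction. The RA-treated OE arrays had slopes of 0.862, 0.800 and 0.887 (replicates 1 to 3), against -0.002, 0.004 and -0.002 on the untreated OE arrays. Replicate 2 was the lowest of the RA-treated arrays and as clearly apart from the untreated ones as the others. The mean was 0.850 ± 0.045 (SD, n = 3) with RA, 0.874 without replicate 2, and the exact permutation p, 2-sided, was 0.1, the smallest that 3 arrays against 3 can give. The OE+KD arrays with RA had slopes of 0.919, 0.953 and 0.952 against the same untreated OE arrays.

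**Figure D5:**
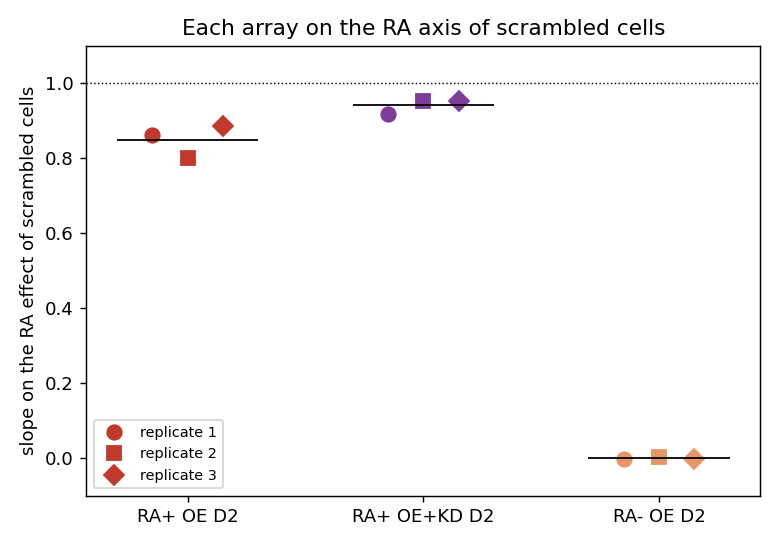
Slope of each array's deviation from the untreated OE mean on the RA effect of scrambled cells (vertical axis) for RA-treated OE, RA-treated OE+KD and untreated OE arrays; lines are group means, and the dotted line marks the scrambled response. The RA-treated OE arrays lie at 0.800 to 0.887.

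The probes of the axis were chosen by their values on scrambled arrays, which favours large effects there and slopes under 1 for OE arrays. Turned round, with the axis from the 2442 probes called in OE cells, the RA-treated scrambled arrays had slopes of 0.872, 0.915 and 0.875, also under 1.

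Finally, lists made on arrays that took no part in the comparison were read in it. Of the 2801 probes that were higher in OE than in scrambled cells on day 4 without RA (26.2% of those tested, where 51.5% were called), RA raised 472 and lowered 286 in OE cells, with a median change of 0.04 log2. Of the 2706 that were lower (25.3%), RA raised 233 and lowered 463, with a median of -0.07. Without replicate 2 these counts were 356 and 284 for the first list and 260 and 397 for the second, so the excess in the direction of OE was smaller. The 619 probes that were higher on day 4 than on day 2 in scrambled cells (5.79%, where 12.3% were called) had 58 raised and 173 lowered by RA in OE cells, a median of -0.13, and 60 and 150 without replicate 2. The 696 that were lower (6.51%) had 150 raised and 114 lowered, with a median of 0.01, and 138 and 123 without replicate 2. Among the 921 probes higher with miR-125b knockdown in RA-treated cells (8.61%, where 16.3% were called) 175 were raised and 139 lowered, and among the 823 lower ones (7.70%) 117 and 105, with medians of 0.00 in both. Without replicate 2 these were 165 and 128, and 109 and 103. The counts for all tested probes were 1204 and 1238, with a median of -0.01, and 1077 and 1120 without replicate 2.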

How the data were processed

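The deposited scanner table gives 20589 probes as linear intensity on each array. Some values are below 0, as after background subtraction. The sources used here name neither its software and array version nor detection calls. A second deposited table, of intensity normalized by the authors with low values set to 20 and the method unnamed, was an alternative. Biotin labelling followed Illumina's protocol, per the labels' protocols.

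In R 4.3.3, limma 3.58.1 applied normexp with an offset of 50, then quantile normalization and log2. That offset makes folds of dim probes smaller. Tested probes were above the median of the array on all 3 arrays in 1 or more of the 8 groups, 10691 of them (51.9%). A model with a mean for each group was fitted to all 24 arrays (lmFit, eBayes), limma's Benjamini-Hochberg adjustment ran over all tested probes, and calls required an adjusted p under 0.05. Leaving out an array kept the normalization and the tested probes, unless stated.

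Named are the first 2 probes by size of change in each direction, for RA in OE cells (among called probes whose arrays do not overlap) and for the difference of RA effects (among called probes). ILMN_23627 is named besides them, as a fall that ended near the background. The comparison, lists and tests were chosen with earlier results of these data known. The lists of retinoid, homeobox, neurotrophin receptor, neuronal and cell cycle genes and the cell type markers were not run, since probes are not paired with genes. No pair of arrays held identical values. Same-numbered scrambled arrays deviated from their group means together (r of 0.430, 0.458 and 0.251), which pairs them; the labels do not say what a number marks. Same-numbered OE arrays did so less (r of 0.175, 0.236 and 0.007). The RA-treated OE mean in these correlations includes the outlying replicate 2, and they were not taken without it. The fit was tested on simulated log2 values with independent noise, in which no array stood apart and replicate numbers were not paired. That test does not cover these features of the data or the background correction. Plots used Python 3.11.15 and matplotlib 3.10.9.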

Additional observations from a re-analysis of the deposited data

Results flagged for a closer look

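The fitted RA effect differed between OE and scrambled cells, by the test of the difference itself, at 79 probes (limma, adjusted p under 0.05), 50 of them positive and 29 negative. With normexp at an offset of 50, the largest positive differences, OE minus scrambled, were 1.27 log2 at ILMN_17483 and 1.07 log2 at ILMN_29635, and the largest negative ones -2.0 log2 at ILMN_28662 and -1.87 log2 at ILMN_23980. The order of the positive pair changed under other background settings, and that of the negative pair in the authors' normalized intensities. ILMN_29635 was near the background in untreated OE cells, so its value does not show that RA acted differently there: a fall could not be measured. All 4 were called under each alternative that tested them and without any 1 of the 12 arrays.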

How the results depend on the processing

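With replicate 2 included in the group mean, replicate numbers paired the arrays of the comparison in OE cells only in part. Same-numbered arrays deviated together with r of 0.175, 0.236 and 0.007, and 2 of the 3 RA-treated arrays correlated best with their own number. The scrambled arrays were paired more closely (0.430, 0.458 and 0.251, each best with its own number). With the replicate number as a block the calls were 3117 in OE cells (2824 without replicate 2 of RA+ OE D2), 2619 in scrambled cells and 122 for the difference. The count for RA in OE cells was 1456 when probes had to pass the 75th percentile, 1078 when only its own groups were fitted (2227 without replicate 2), 2203 without replicate 2 and normalized again, and 1788 to 2690 without any 1 array. Its share of higher calls stayed between 46.5% and 52.9% over all of these settings. The count for RA in scrambled cells was 1243 with that percentile, 3739 with array weights, and 1528 to 1624 without any 1 array. With only its own groups fitted it was 2931, against 1078 for RA in OE cells, so the order of these counts depends on the fit. Median scaling turned the share of higher calls in scrambled cells from 48.0% to 28.1%. The difference was called at 44 probes with median scaling (77.3% positive in place of 63.3%), 43 without background correction, 48 with offset 16, 49 in the authors' normalized intensities, 41 with no filter, 156 with array weights, 35 when only its own groups were fitted, and 34 to 99 without any 1 array. The cause of these moves was not tested. The mean slope of RA-treated OE arrays was 0.831 to 0.874 without any 1 of them. That check, and the turned axis, were chosen after seeing the data. The 8 changes printed for the first 2 probes in each direction kept direction and call in every setting that tested them, though not their order. ILMN_29635 was not tested under that percentile, and its difference was 2.33 log2 without background correction. Signal near the background limits the folds of the strongest rises and of falls that end near it.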
